A study of Mus musculus with 27 samples.

Results

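The 33 genes described here are markers of blood lineages other than T cells, measured in RNA-seq libraries of mouse CD8 T cells at 3 stages. They were listed by name, with earlier results of these data in view, and make up 33 of the 35275 genes in the tables. Of these, 18 mark myeloid cells (macrophages, monocytes and neutrophils), 4 belong to antigen presentation on MHC class II, 5 mark B cells and 6 mark red cells and their precursors. All 33 were found in the tables, and each had reads in at least 5 of the 27 libraries.

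All cells carried P14, a transgenic T cell receptor that recognizes the gp33 peptide of LCMV, on a Rag2-/- background per the study's methods, so that the donor animals could make no rearranged receptors of their own. WT cells were compared with lin28Tg cells (Lin28bTg in the labels), in which Lin28 blocks the maturation of let-7 microRNAs, and with let-7Tg cells, in which a let-7g transgene in the Col1a1 locus is induced by doxycycline. Each genotype was sampled as naive cells (0 h), after 12 h with anti-CD3 (2 µg/mL) and anti-CD28 (5 µg/mL), and as cytotoxic T lymphocytes (CTLs) on day 5, after anti-CD3 (2 µg/mL) with irradiated splenocytes and IL-2 (100 U/mL) added at 48 h. There were 3 libraries in each of the 9 groups. Doxycycline (2 µg/mL) was in the culture medium, and the methods state that control animals drank it too. The promoter that drives the Lin28 transgene is not given in the sources used here. Cells came from lymph nodes and spleens of 6 to 10-week-old animals of both sexes, and spleen red cells were lysed. How the CD8 cells were purified, how many animals went into a library and where the irradiated splenocytes came from are not given in the sources used here.

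The libraries held 13862706 to 23591069 reads assigned to genes. Lin28b stood at 9.94 to 67.9 FPKM in the lin28Tg libraries and at or below 0.0590 elsewhere, and Col1a1 was at 9.06 to 62.8 FPKM in the let-7Tg libraries and at or below 4.93 elsewhere. Rag2 was low but had reads in every library, at 0.128 to 0.674 FPKM in naive cells. It was at 0.0248 to 0.191 FPKM at 12 h and 0.0341 to 0.184 on day 5. Which part of the gene gave these reads, and what they mean for the Rag2-/- background, was not tested. The T cell label held throughout: 10 T cell genes, among them Cd3e, Cd8a and Trac, had reads in every library. They summed to 5228 to 7395 FPKM in the naive libraries. The sums were lower later, at 2470 to 3354 FPKM at 12 h and 3075 to 4084 FPKM on day 5. The libraries also differed in Xist, which is expressed in female cells, and Ddx3y, which is Y-linked. Each WT and let-7Tg naive library held one of these, while all 3 naive lin28Tg libraries held both (Xist 68.2 to 115 FPKM, Ddx3y 13.0 to 37.4 FPKM), as did lin28Tg replicate 3 at 12 h (112 and 15.1 FPKM). At 12 h every WT and let-7Tg library held Ddx3y (34.9 to 60.6 FPKM), with Xist at or below 0.0764 FPKM. In naive cells replicates 2 and 3 of these genotypes held Xist, so the stages also differ in sex.

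Macrophages, monocytes, dendritic cells and B cells are the professional antigen presenting cells of lymph node and spleen, and spleen also holds red cells and their precursors. Macrophages are known for complement C1q, the receptor for colony stimulating factor 1 and lysozyme, neutrophils for the S100a8/S100a9 pair, and red cell precursors for globin and heme synthesis. MHC class II is made of an alpha and a beta chain, folded with the invariant chain Cd74, and mouse T cells are known to make little of it. In a bulk library, fewer cells of a type and less RNA per cell cannot be told apart, and this holds for every value given here.

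Stretches of DNA just before the start of 6 of the markers are shown, from the erythroid, antigen presentation and myeloid groups. They come from RefSeq (build GRCm38.p6) and read 5′ to 3′ along the gene's strand, with the motif in capitals. Of the 33 markers, 21 had such a sequence, and motifs were searched on both strands in the 250 bases before each start. The globin copies Hba-a1 (chr11:32283552-32283671, plus strand) and Hba-a2 (chr11:32296372-32296491, plus strand) hold a CATATAAG box 29 and 32 bases before the start and a CACCC box 60 and 63 bases before it. The class II genes H2-Aa (chr17:34287824-34287943, minus strand) and H2-Eb1 (chr17:34305747-34305866, plus strand) hold a Y box, CTGATTGG, 51 and 62 bases before the start. For these 4 genes the last 120 bases before the start are printed. For S100a8 (chr3:90668871-90668930, plus strand) and C1qc (chr4:136893075-136893134, minus strand), 60 bases are printed that hold GAGGAAGT on the opposite strand, so that it reads ACTTCCTC. This motif is bound by PU.1, the protein of Spi1, and lies 172 and 195 bases before the start.
Hba-a1: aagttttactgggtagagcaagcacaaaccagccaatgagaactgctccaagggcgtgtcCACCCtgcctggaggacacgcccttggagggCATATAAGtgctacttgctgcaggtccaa
Hba-a2: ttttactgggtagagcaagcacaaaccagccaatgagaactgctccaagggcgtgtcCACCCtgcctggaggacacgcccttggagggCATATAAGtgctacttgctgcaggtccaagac
H2-Aa: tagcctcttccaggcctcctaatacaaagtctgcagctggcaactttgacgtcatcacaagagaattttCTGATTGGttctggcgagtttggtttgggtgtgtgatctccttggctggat
H2-Eb1: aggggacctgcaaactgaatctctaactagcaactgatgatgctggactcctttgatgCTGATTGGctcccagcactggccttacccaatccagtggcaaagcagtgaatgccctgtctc
S100a8: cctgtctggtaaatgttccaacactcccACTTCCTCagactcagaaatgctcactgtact
C1qc: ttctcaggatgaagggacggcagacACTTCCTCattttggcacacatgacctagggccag

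The stretches before Hba-a1 and Hba-a2 share an unbroken run of 247 bases, set off by 3 bases, and reads of these copies may have been split between them. Of 32851 stretches of the same length before RefSeq starts, 0.435% hold CATATAAG, 52.0% CACCC, 3.83% CTGATTGG and 2.44% GAGGAAGT. Of the 21 markers, CATATAAG is in 2 (Hba-a1 and Hba-a2), CACCC in 14, CTGATTGG in 3 (H2-Aa, H2-Eb1 and Klf1) and GAGGAAGT in 2 (S100a8 and C1qc). A match is a description of the letters and no evidence of binding.

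To ask how markers of other lineages stood in naive cells of each genotype, levels were compared as FPKM, which is scaled to gene length and depth. Tests were made with limma on log2(FPKM + 0.5) over all genes with enough reads, with Benjamini-Hochberg adjustment and a threshold of 0.05. Each log2 fold change is on this scale, with its standard error, and understates the change of low genes. Naive lin28Tg libraries held more of nearly every marker than WT. Of the 29 markers tested, 25 were higher and 1 lower, against 34.9% of all 13277 genes tested that changed and 19% that were higher. The groups did not overlap for 28 of the 29, against 49% of all genes. The median log2 fold change of the markers was 2.18, and that of all genes was -0.04. Cd14, Ms4a1, Pax5 and Klf1 had too few reads in naive libraries to be tested.

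**Figure D1:**
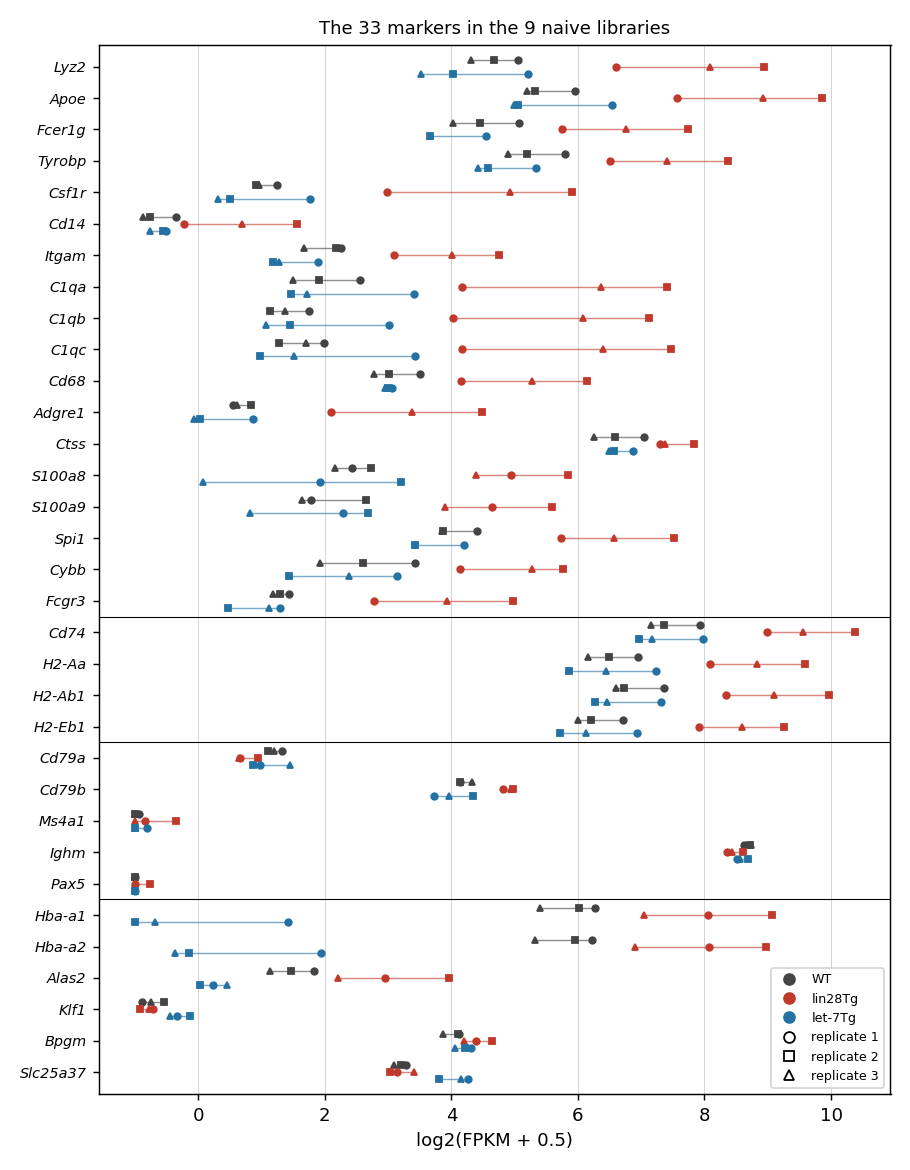
Level of each of the 33 markers in the 9 naive libraries, as log2(FPKM + 0.5), with genotype in color, replicate number by shape and a line over the range of each group; horizontal rules part the myeloid, antigen presentation, B cell and erythroid markers. Of the 29 markers tested, 25 were higher in lin28Tg than in WT, and let-7Tg libraries lie below them for Hba-a1 and Hba-a2.

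Naive lin28Tg libraries stood apart among themselves as well. The 18 myeloid markers summed to 803, 3227 and 1711 FPKM in lin28Tg replicates 1, 2 and 3, and to 220 to 384 FPKM in the WT libraries. Replicate 2 was highest for 30 of the 31 markers that could be ranked, and counts that rest on it are also given without it. Without this library, 23 of the 29 markers passed the test, and the median log2 fold change was 1.78. The 3 calls lost with it were Hba-a1, Hba-a2 and S100a8. All markers but Ighm took 0.265% to 0.793% of the reads in naive lin28Tg libraries and 0.0750% to 0.125% in naive WT libraries.

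All 17 myeloid markers tested were higher in naive lin28Tg cells. The steepest were the 3 chains of complement C1q, which starts the classical complement pathway and is made by tissue macrophages. C1qc was at 17.5, 177 and 84.0 FPKM in lin28Tg libraries and at 3.48, 1.91 and 2.76 in WT. Every lin28Tg library was above every WT library, by a log2 fold change of 4.31 ± 0.80 (adjusted p = 0.0037), or 3.58 without lin28Tg replicate 2 (adjusted p = 0.010). C1qb (4.28 ± 0.71, or 3.597 without that library) and C1qa (3.94 ± 0.75, or 3.23) were higher as well. The 3 genes are neighbors on chromosome 4, with gaps of 2.852 and 3.617 kb, and C1qa stood at 0.960 to 0.997 times C1qc in each naive lin28Tg library.

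Csf1r, the receptor through which macrophages receive their survival signal, was at 7.37, 59.8 and 29.8 FPKM in naive lin28Tg cells and at 1.88, 1.37 and 1.44 in WT, a difference of 3.52 ± 0.63 (adjusted p = 0.0033). It overlaps Hmgxb3 on the other strand, and whether counting used strand is not given in the sources used here. Lyz2, the lysozyme of macrophages and neutrophils, was at 96.2, 491 and 272 FPKM against 32.5, 25.0 and 19.2 (3.14 ± 0.56, adjusted p = 0.0031). Apoe, a lipid carrier that macrophages secrete, was at 189, 928 and 487 FPKM against 61.5, 39.3 and 36.0 (3.24 ± 0.56). In each of these the WT and lin28Tg libraries did not overlap, and lin28Tg replicate 1 lay nearest to WT. Without lin28Tg replicate 2 the differences were 2.87 for Csf1r, 2.62 for Lyz2 and 2.71 for Apoe, and all passed.

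Adgre1, which encodes the macrophage antigen F4/80, was at 3.77, 21.8 and 9.95 FPKM against 0.956, 1.29 and 1.02 in WT (2.61 ± 0.49). Spi1, which encodes PU.1, the transcription factor of myeloid and B cells, was at 52.6, 182 and 94.7 FPKM against 20.7, 14.1 and 13.9 (2.50 ± 0.39, adjusted p = 0.0017). The lysosomal protein Cd68 (2.03 ± 0.40), the NADPH oxidase chain Cybb (2.35 ± 0.52), the Fc receptor Fcgr3 (2.54 ± 0.45) and the integrin chain Itgam (1.86 ± 0.36) were also higher, as were Fcer1g (2.18 ± 0.46) and Tyrobp (2.07 ± 0.43), a pair of signaling adaptors that myeloid and NK cells share. Ctss, a protease that cuts the invariant chain, was already at 75.9 to 131 FPKM in WT and was higher by the least, 0.81 ± 0.20. Without lin28Tg replicate 2 these 9 genes, from Adgre1 to Ctss, still passed, with differences from 0.66 (Ctss) to 2.06 (Spi1). Cd14, a coreceptor for bacterial lipopolysaccharide, was not tested, at 0.359, 2.45 and 1.11 FPKM against 0.283, 0.0901 and 0.0450.

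The neutrophil pair S100a8 and S100a9, subunits of calprotectin, did not follow the same library order. S100a8 was at 30.4, 57.2 and 20.4 FPKM in naive lin28Tg libraries and at 4.86, 6.14 and 3.97 in WT, a difference of 2.57 ± 0.67 (adjusted p = 0.016). Without lin28Tg replicate 2 it was 2.18 and no longer passed (adjusted p = 0.057). S100a9 was at 24.5, 47.7 and 14.4 FPKM against 2.95, 5.76 and 2.61 (2.63 ± 0.54, or 2.20 without that library, adjusted p = 0.019). Both were lowest in lin28Tg replicate 3, whereas the macrophage markers were lowest in replicate 1. Over the naive lin28Tg libraries C1qa ranged from 0.575 to 4.01 times S100a8.

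**Figure D2:**
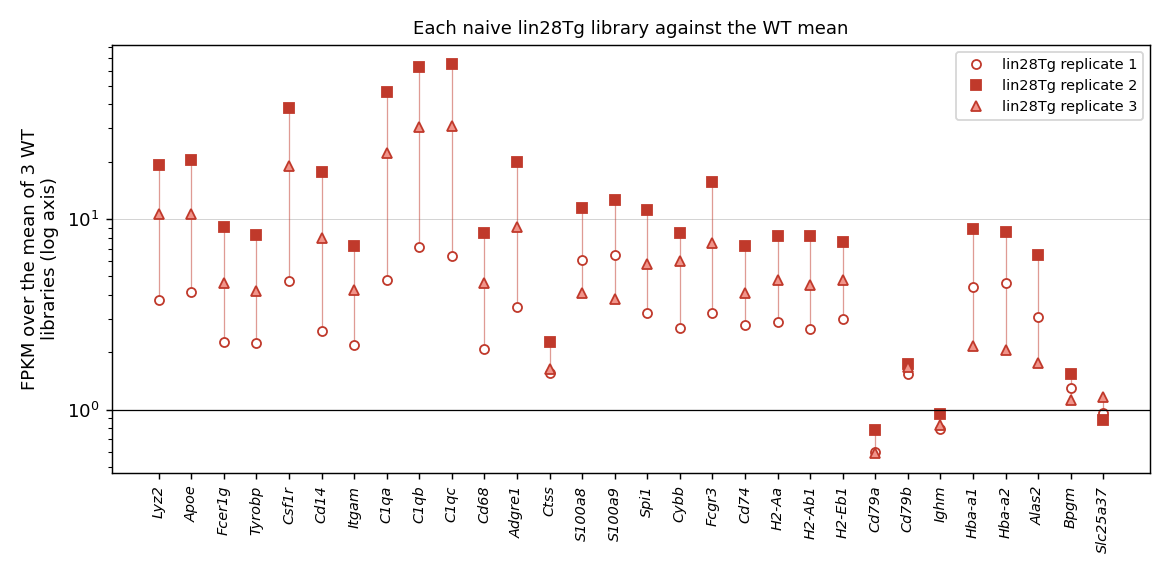
FPKM in each naive lin28Tg library divided by the mean of the 3 WT libraries, on a log axis with a line at 1, for the markers with enough reads and Cd14. Replicate 2 is highest for nearly every marker, replicate 3 comes next for the macrophage and MHC class II markers, and replicate 1 comes next for S100a8, S100a9, Hba-a1, Hba-a2 and Alas2.

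The library order parted the markers into 2 sets. Of the 31 markers ranked in naive lin28Tg libraries, 22 ran replicate 2, then 3, then 1. These held the macrophage markers, Spi1, Cd74, the 3 class II genes and the B cell markers Cd79b and Ighm. Another 8 ran replicate 2, then 1, then 3: S100a8, S100a9, Cd79a, Ms4a1, Hba-a1, Hba-a2, Alas2 and Bpgm. For Cd79a, replicates 1 and 3 were nearly level, at 0.596 and 0.589 times the WT mean. They were also close for Cd79b (1.54 and 1.68), Ighm (0.795 and 0.831) and Ctss (1.55 and 1.64), so the order of these genes rests on small differences. Slc25a37 alone was highest in replicate 3. With 3 libraries this is a description, and no test was made of it.

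The 4 antigen presentation markers were all higher in naive lin28Tg cells, by nearly the same amount. Cd74, the invariant chain that guides class II through the cell, was at 508, 1324 and 751 FPKM in lin28Tg and at 243, 164 and 141 in WT (2.10 ± 0.36, adjusted p = 0.0026). H2-Aa, the alpha chain of I-A, was at 273, 769 and 455 FPKM against 123.3, 89.4 and 71.2 (2.24 ± 0.40). H2-Ab1, its beta chain, was at 325, 1000 and 551 FPKM against 165, 105 and 96.2 (2.18 ± 0.39). H2-Eb1, the beta chain of I-E, was at 241, 609 and 387 FPKM against 105, 73.3 and 63.7 (2.22 ± 0.36), and overlaps the antisense gene Gm20513. Without lin28Tg replicate 2 the 4 differences ran from 1.74 (Cd74) to 1.90 (H2-Eb1), and all passed the test.

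The ratios among the class II genes held steady in naive cells of all genotypes. H2-Ab1 was 1.00 to 1.35 times H2-Aa in the 9 naive libraries, and H2-Aa was 1.11 to 1.26 times H2-Eb1. Cd74 was 1.65 to 2.14 times H2-Aa. The genes lie together on chromosome 17, with 13.325 kb between H2-Ab1 and H2-Aa and 18.044 kb between H2-Aa and H2-Eb1, while Cd74 is on another chromosome.

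B cell markers split. Cd79b, a signaling chain of the B cell receptor, was higher in naive lin28Tg cells at 27.7, 31.0 and 30.1 FPKM against 17.1, 17.1 and 19.6 in WT (0.65 ± 0.15, adjusted p = 0.0085), and by 0.62 without lin28Tg replicate 2. Its partner Cd79a was low in every library, at 1.08, 1.43 and 1.07 FPKM against 2.00, 1.65 and 1.80, and did not pass (-0.50 ± 0.18, adjusted p = 0.051). Ighm, the constant region of the IgM heavy chain, was the only marker called lower. It was at 329, 390 and 344 FPKM in lin28Tg and 394, 421 and 427 in WT, a difference of -0.29 ± 0.09 (adjusted p = 0.028) that passed in 2 of the 6 fits that left out a library. It passed without lin28Tg replicate 2 (adjusted p = 0.017), but not without lin28Tg replicate 1 or 3, or without WT replicate 2 or 3. Ms4a1 (CD20) and Pax5, the transcription factor that commits B cells, were at 0 to 0.279 and 0 to 0.0865 FPKM in the naive libraries. Ms4a1 and Pax5 were therefore at or near 0 beside Ighm levels of 329 FPKM or more in all 9 naive libraries. Cd79b, at 12.7 to 31.0 FPKM, and Cd79a, at 1.07 to 2.23, had reads in each of these libraries.

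Erythroid markers also split. The globin gene Hba-a1 was at 267, 537 and 131 FPKM in naive lin28Tg cells and at 76.8, 64.1 and 41.8 in WT (2.10 ± 0.64, adjusted p = 0.030). Hba-a2 was at 269, 501 and 120 FPKM against 74.2, 61.4 and 39.4 (2.09 ± 0.64). The groups did not overlap, but both calls were lost without lin28Tg replicate 2 (adjusted p = 0.10 for each), and also without lin28Tg replicate 1 or WT replicate 2 or 3. Alas2, the first enzyme of heme synthesis in red cells, was at 7.20, 15.1 and 4.10 FPKM against 3.06, 2.27 and 1.70 (1.51 ± 0.38, adjusted p = 0.014). It kept its call without lin28Tg replicate 2 but not without WT replicate 3 (adjusted p = 0.055), and it overlaps Apex2 on the other strand. Klf1, the transcription factor of red cell precursors, was at 0.0276 to 0.110 FPKM in the naive lin28Tg libraries and was not tested. Bpgm, which makes the 2,3-bisphosphoglycerate of red cells but is made in other cells too, was at 20.5, 24.6 and 17.8 FPKM against 16.9, 16.8 and 14.0 (0.32 ± 0.13, adjusted p = 0.079). Slc25a37, the mitochondrial iron carrier mitoferrin, was at 8.32, 7.69 and 10.1 FPKM against 9.26, 8.71 and 8.05 and overlapped WT (-0.06 ± 0.13, adjusted p = 0.76).

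Other genes of the same lineages moved with these markers. Of 18 further myeloid genes tested, 17 were higher in naive lin28Tg cells than in WT, and none lower. Of 8 further antigen presentation genes, 5 were higher and H2-Ob lower. Of 8 further B cell genes, 6 were higher and Cd72 lower. Of 7 further erythroid genes, Hbb-bt, Epor, Car2 and Hemgn were higher, while Hbb-bs, at 435, 807 and 208 FPKM against 119, 98.5 and 60.4, did not pass (2.16 ± 0.93, adjusted p = 0.098). Beside the 19% of all genes that were higher, markers of other cells were called as follows: 6 of 8 dendritic cell genes, 5 of 9 NK cell genes and 2 of 3 mast cell and basophil genes were higher, and neither of the 2 platelet genes tested was. Of the CD4 T cell genes, Cd4 and Zbtb7b were higher, and Foxp3 and Cd40lg lower. Of the 10 T cell genes, Cd3e, Cd3g, Trac, Cd2 and Cd5 were lower, and the list summed to 5228 to 5742 FPKM in lin28Tg against 6492 to 7395 in WT. The part of cell makeup, and of the libraries that hold both Xist and Ddx3y, in the marker differences was not tested.

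Naive let-7Tg cells were compared with the same WT libraries. Here 3 of the 29 markers passed the test, against 0.934% of all genes. None of the 17 myeloid markers passed (limma, none at an unadjusted p under 0.05 either), and their differences ran from -0.75 to 0.38. Lyz2 was at 36.5, 15.9 and 10.997 FPKM and Csf1r at 2.89, 0.913 and 0.741 FPKM in let-7Tg, and both overlapped WT. Let-7Tg replicate 1 was highest of its group for 23 of the 29 markers ranked, and WT replicate 1 for 24 of 29.

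The alpha globins were nearly absent from naive let-7Tg cells. Hba-a1 was at 2.16, 0 and 0.121 FPKM, against 41.8 to 76.8 in WT, a difference of -6.04 ± 0.64 (adjusted p = 0.0054). Hba-a2 was at 3.32, 0.407 and 0.275 FPKM (-5.40 ± 0.64, adjusted p = 0.0078), and lost its call only without WT replicate 2 (adjusted p = 0.055). The beta globin Hbb-bs was at 29.9, 0.862 and 6.36 FPKM against 60.4 to 119 in WT and did not pass (adjusted p = 0.094). Alas2 was at 0.673, 0.514 and 0.868 FPKM, below every WT library, and did not pass either (-1.29 ± 0.38, adjusted p = 0.15).

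Slc25a37 went the other way from the globins. It was at 18.7, 13.4 and 17.3 FPKM in naive let-7Tg cells and at 9.26, 8.71 and 8.05 in WT, a difference of 0.82 ± 0.13 (adjusted p = 0.032). The groups did not overlap, but the call held in only 1 of the 6 fits that left out a library (highest adjusted p = 0.13, without WT replicate 2). The antisense genes Gm27222 and Gm27223 overlap it. Bpgm was at 19.3, 18.1 and 16.2 FPKM and overlapped WT.

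Set against let-7Tg, naive lin28Tg cells had 25 markers higher and 1 lower, Slc25a37, against 44.2% of all genes that changed. Hba-a1 differed by 8.14 ± 0.64 and Hba-a2 by 7.497 ± 0.64, and all 17 myeloid markers tested were higher. The count of 26 was the same without each library in turn, lin28Tg replicate 2 included. The WT libraries do not enter this contrast, but the lin28Tg and let-7Tg libraries are those of the comparisons above.

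After 12 h with anti-CD3 and anti-CD28, most markers were lower in every genotype. Of 30 markers tested over all 27 libraries, 25 fell in WT (35.3% of all genes fell), 28 in lin28Tg (38.6%) and 22 in let-7Tg (35%). Within 12 h alone 25 markers had enough reads to be tested. The rest of the 30 entered through other stages where they were higher, so for them a fall was the only call open. Without lin28Tg naive replicate 2, the lin28Tg markers called in either direction went from 29 to 28 at 12 h, as Hba-a1 no longer passed, and stayed at 29 on day 5. Lyz2 went from 19.2 to 32.5 FPKM in naive WT to 0.728, 4.48 and 0.705 FPKM at 12 h (-3.52 ± 0.52), and from 96.2 to 491 FPKM in naive lin28Tg to 4.31, 3.13 and 1.75 (-5.89 ± 0.52). C1qc in lin28Tg went to 0.472, 0.110 and 0.108 FPKM, a fall of 6.35 ± 0.55 on the log2 scale. Cd79b fell in all genotypes, with log2 fold changes of -3.21 ± 0.21 in WT, -3.12 ± 0.21 in lin28Tg and -3.06 ± 0.21 in let-7Tg.

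Some markers did not fall in every genotype. Apoe was at 25.8, 37.6 and 30.04 FPKM at 12 h in WT and at 28.2, 37.4 and 28.1 in let-7Tg, and fell only in lin28Tg among the 3 tests (-4.05 ± 0.42), to 26.2, 21.3 and 19.4 FPKM. Cd68 was at 2.46 to 6.56 FPKM in all 9 libraries at 12 h. It fell in lin28Tg, from 17.2, 69.9 and 38.4 FPKM in naive cells (-2.83 ± 0.32), and did not pass in WT (-0.70 ± 0.32, adjusted p = 0.058) or let-7Tg (-0.28 ± 0.32, adjusted p = 0.46). Slc25a37 rose in each genotype, by 1.26 ± 0.16 in WT, 0.92 ± 0.16 in lin28Tg and 0.59 ± 0.16 in let-7Tg, and Bpgm rose in let-7Tg (0.38 ± 0.14, adjusted p = 0.017).

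The gap between lin28Tg and WT was smaller at 12 h for 9 markers, all myeloid, when the difference of the differences was tested, against 6.05% of all genes. They were C1qc (-4.30 ± 0.78), C1qb (-4.07 ± 0.73), Apoe (-3.77 ± 0.60), C1qa (-3.43 ± 0.76), Csf1r (-3.04 ± 0.61), Lyz2 (-2.37 ± 0.73), Cd68 (-2.13 ± 0.46), Fcgr3 (-1.99 ± 0.56) and Adgre1 (-1.72 ± 0.47). The C1q chains and Csf1r were near 0 at 12 h in both genotypes, with group means of 0.0814 to 0.359 FPKM. For them the value largely restates the naive difference: for C1qc it was -4.30, beside 4.31 in naive cells. With a pseudocount of 0.1 there were 5 such markers, with Lyz2, C1qa, Fcgr3 and Adgre1 lost. Without lin28Tg naive replicate 2 there were 6, with Lyz2, Fcgr3 and Adgre1 lost. The same 6 remained without lin28Tg naive replicate 3, WT naive replicate 3 or lin28Tg 12 h replicate 3. The change from naive to 12 h differed between let-7Tg and WT for none of the 30 markers (limma, 2 at an unadjusted p under 0.05), against 0.0761% of all genes.

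At 12 h itself, 4 of 25 markers tested were higher in lin28Tg than in WT and none was lower, against 8.49% of all genes that changed. Itgam was at 1.24, 1.22 and 0.945 FPKM in lin28Tg and at 0.168, 0.383 and 0.0861 in WT (1.21 ± 0.18, adjusted p = 0.0045). Cd14 was at 0.848, 0.564 and 0.705 FPKM against 0.0451, 0.304 and 0.0811 (0.92 ± 0.18), Adgre1 at 0.618, 0.612 and 0.403 against 0.134, 0.0749 and 0.0400 (0.83 ± 0.15) and Cd79b at 2.51, 2.43 and 2.44 against 1.46, 1.23 and 1.02 (0.77 ± 0.14). None of these 4 overlapped between the groups, and all but Cd79b were below 1.3 FPKM. Without lin28Tg replicate 2, Itgam was the only marker that passed, and Cd14 and Adgre1 then had too few reads to be tested. Cd14 and Adgre1 met the read filter only through the lin28Tg libraries. For them a higher level in lin28Tg was the only call open. Itgam met the filter only with the lin28Tg libraries included, which left little room for a lower call. The calls of Cd14, Adgre1 and Itgam therefore say nothing about direction in the count above. Without lin28Tg replicate 1, 2 markers passed.

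Globin reads at 12 h differed widely among the lin28Tg libraries. Hba-a1 was at 185, 40.8 and 25.0 FPKM in lin28Tg and at 6.53, 23.5 and 9.51 in WT, and did not pass (2.27 ± 0.65, adjusted p = 0.063) although the groups did not overlap. It passed without lin28Tg replicate 3 or without WT replicate 2. In let-7Tg it was at 0.211, 0.110 and 0.104 FPKM, lower than WT by a log2 difference of -4.23 ± 0.65 (adjusted p = 0.020). Hba-a2 in let-7Tg was at 0.241, 0.125 and 0 FPKM (-4.29 ± 0.64, adjusted p = 0.019). Both calls were lost without WT replicate 2 or 3 or let-7Tg replicate 3. With Bpgm, at 18.0, 18.7 and 23.3 FPKM against 12.4, 12.8 and 13.0 (0.59 ± 0.13, adjusted p = 0.042, held in 1 of 6 fits without a library), 3 of 25 markers passed between let-7Tg and WT at 12 h, against 3.24% of all genes.

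Between lin28Tg and let-7Tg at 12 h, 13 markers were higher in lin28Tg and Apoe, Bpgm and Slc25a37 were lower, against 30.8% of all genes that changed. Here too, Cd14 and Adgre1 could only have been called higher in lin28Tg. Csf1r, Itgam, S100a9 and Alas2 also met the read filter only with the lin28Tg libraries included, which left little room for a lower call. Any calls of these genes say nothing about direction in this count. Hba-a1 (6.503 ± 0.65) and Hba-a2 (6.45 ± 0.64) differed most. Cybb was at 5.30, 4.29 and 3.61 FPKM in lin28Tg and 0.636, 1.63 and 0.835 in let-7Tg (1.72 ± 0.24), and Ighm was at 105, 99.4 and 80.9 FPKM against 79.2, 37.3 and 59.4 (0.76 ± 0.25, adjusted p = 0.043). Without lin28Tg replicate 1 there were 8 calls, without lin28Tg replicate 2 there were 7, and without let-7Tg replicate 1 or 3 there were 10 and 9.

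**Figure D3:**
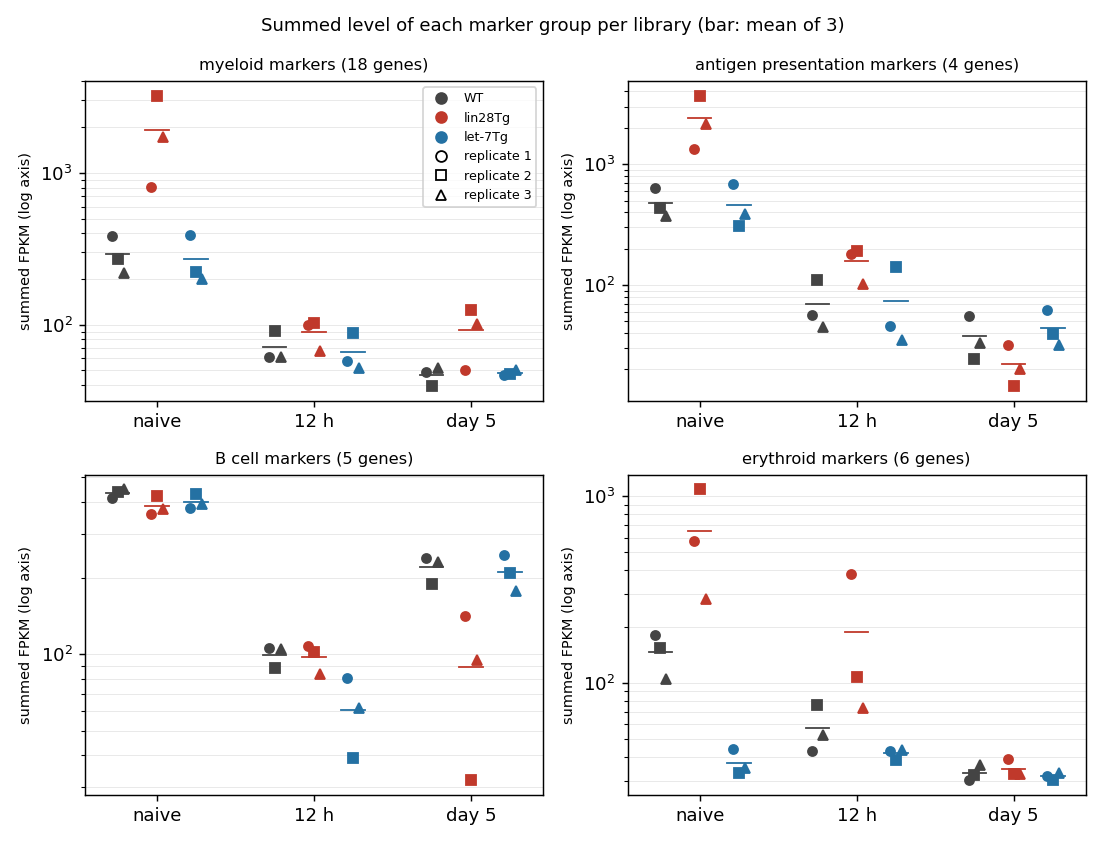
Summed FPKM of the 18 myeloid, 4 antigen presentation, 5 B cell and 6 erythroid markers in each of the 27 libraries by stage, on log axes, with genotype in color, replicate number by shape and a bar at the mean of 3. The myeloid sum of lin28Tg runs from 803 to 3227 FPKM in naive cells and from 50.2 to 125 on day 5, where WT runs from 39.4 to 51.8.

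By day 5 most of the markers had no or few reads. C1qa, C1qb, C1qc and Ms4a1 had no read in any of the 9 libraries, 14 markers had at most 3 reads in each, and 19 stayed below 1 FPKM throughout. Of 30 markers tested, 26 were lower than in naive cells in WT (32.7% of all genes), 28 in lin28Tg (34.2%) and 23 in let-7Tg (31.2%). Only 16 markers had enough reads to be tested within day 5. The rest of the 30 entered through earlier stages where they were higher, so for them a fall was the only call open. Spi1 had no read in the WT and lin28Tg libraries on day 5. With a floor of 3 reads in each library, it was at least 632-fold lower than in naive lin28Tg cells and at least 89.7-fold lower than in naive WT cells. On the same floor in lin28Tg, C1qc was at least 641-fold, C1qa 599-fold, C1qb 515-fold and Cybb 348-fold lower, and in WT Lyz2 was at least 199-fold and Cybb 58.2-fold lower. These bounds cover counting error only.

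Alas2 and the globins in let-7Tg were among those that did not fall. Hba-a1 in let-7Tg was at 0.855, 0.296 and 0.254 FPKM on day 5, beside 2.16, 0 and 0.121 in naive cells. In WT it went from 41.8 to 76.8 FPKM in naive cells to 0.625, 0 and 0.0908, a fall of 6.34 ± 0.64 on the log2 scale. The change from naive to day 5 differed between let-7Tg and WT for Hba-a1 (6.36 ± 0.90) and Hba-a2 (5.47 ± 0.86), 2 of 30 markers against 0.346% of all genes. Both were near 0 on day 5 in both genotypes and already low in naive let-7Tg cells, so these values restate the naive differences of -6.04 and -5.40.

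The change from naive to day 5 was steeper in lin28Tg than in WT for 19 of the 30 markers, against 11.2% of all genes. Of these 14 were myeloid, 4 were the antigen presentation genes and 1 was Alas2. The differences ran from -4.31 ± 0.78 for C1qc to -1.46 ± 0.46 for Cd68. Without lin28Tg naive replicate 2 there were 13 such markers, and Cd68, Fcgr3, S100a8, S100a9, H2-Aa and Alas2 no longer passed. For the markers at or near 0 on day 5 in both genotypes this restates the naive difference and is no separate result: for C1qc the values were -4.31 and, in naive cells, 4.31, and for Spi1 -2.52 and 2.50. Ctss and H2-Ab1 kept reads on day 5 in both.

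The 14 markers that reached 1 FPKM in at least 1 library on day 5 were Apoe, Fcer1g, Tyrobp, Itgam, Cd68, Ctss, Fcgr3, H2-Ab1, H2-Eb1, Cd79a, Cd79b, Ighm, Bpgm and Slc25a37. Their partners from the same lineages were mostly at 0. In WT, lin28Tg and let-7Tg together, Lyz2 was at 0 to 0.0807 FPKM, Csf1r at 0 to 0.0210, Spi1 at 0 to 0.0569, Adgre1 at 0 to 0.0318 and Cybb at 0 to 0.0594.

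Between lin28Tg and WT CTLs, 3 of 16 markers tested passed, against 4.34% of all genes. Fcer1g, the adaptor chain of Fc receptors and of receptors on NK cells, was at 22.1, 102 and 69.8 FPKM in lin28Tg, 6.59, 7.27 and 2.20 in WT and 1.38, 1.53 and 1.37 in let-7Tg. The 3 genotypes did not overlap. Lin28Tg was higher than WT by 3.42 ± 0.55 (adjusted p = 0.015), a call lost without lin28Tg replicate 3 (adjusted p = 0.065). Its level in naive cells was 53.0 to 213 FPKM in lin28Tg, so that 1 of these day 5 libraries lay below and 2 lay within that range, and the fall from naive did not pass in this genotype (-0.80 ± 0.52, adjusted p = 0.18). Tyrobp, which stood at 1.55 to 1.93 times Fcer1g in all naive libraries, was at 1.57, 3.70 and 5.27 FPKM in lin28Tg CTLs, or 0.0364 to 0.0756 times Fcer1g.

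Itgam, the alpha chain of the integrin Mac-1, was at 3.56, 1.14 and 1.99 FPKM in lin28Tg CTLs and at 0.720, 0.322 and 0.183 in WT (1.58 ± 0.34, adjusted p = 0.036), with no overlap. Leaving out any library other than lin28Tg replicate 2 ended that call (highest adjusted p = 0.12). Ctss was lower in lin28Tg CTLs, at 7.86, 4.87 and 8.55 FPKM against 23.6, 18.1 and 34.9 (-1.71 ± 0.26, adjusted p = 0.012), and passed in all 6 fits that left out a library. Its direction was opposite to that in naive cells, and the change from naive differed between the genotypes by -2.55 ± 0.33 (adjusted p = 1.7e-05).

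Day 5 libraries of the same replicate number deviated together across genes, and a fit with the replicate number as a block called 7 markers between lin28Tg and WT. It kept Fcer1g, Itgam and Ctss, and added Cd68 (0.60, adjusted p = 0.038), Fcgr3 (0.79, adjusted p = 0.024), H2-Ab1 (-0.70, adjusted p = 0.017) and Ighm (-1.55, adjusted p = 0.028). In each genotype, replicate 1 was the library with high Xist on day 5 (383 to 476 FPKM), while replicates 2 and 3 held Ddx3y.

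**Figure D4:**
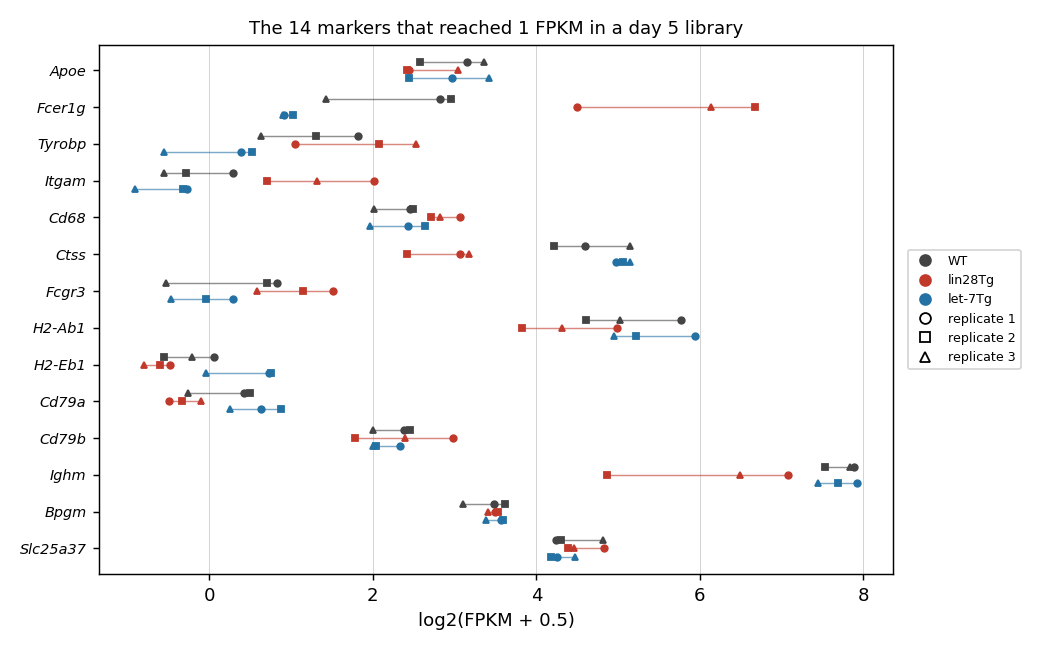
Level of the 14 markers that reached 1 FPKM in a day 5 library, as log2(FPKM + 0.5), in the 9 CTL libraries, with genotype in color, replicate number by shape and a line over the range of each group. Fcer1g separates the 3 genotypes, Ctss is lower in lin28Tg, and H2-Ab1 and Ighm lie at 13.7 to 60.7 and 28.7 to 242 FPKM.

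H2-Ab1 parted from its class II partners on day 5. It was at 53.8, 23.9 and 32.1 FPKM in WT CTLs, 31.2, 13.7 and 19.5 in lin28Tg and 60.7, 36.7 and 30.5 in let-7Tg. H2-Aa, with which it forms I-A, was at 0 to 0.186 FPKM in the same libraries, H2-Eb1 at 0.0761 to 1.19 and Cd74 at 0.275 to 0.867. H2-Ab1 was 30.8 to 99.5 times H2-Eb1 in the 4 libraries with at least 10 reads of both, where it had been 1.25 to 1.64 times in the 9 naive libraries. The log2 fold change from naive to day 5 in WT was -1.67 ± 0.45 for H2-Ab1, -7.33 ± 0.45 for H2-Aa, -6.45 ± 0.47 for H2-Eb1 and -7.30 ± 0.36 for Cd74. Ciita, the coactivator of the class II genes, was at 0.0389 to 0.154 FPKM on day 5 (a gene singled out after its values were seen). Of 7 further antigen presentation genes tested between lin28Tg and WT CTLs, H2-DMa, H2-DMb2, H2-Oa and H2-Ob were lower and none was higher.

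Ighm was still among the highest markers on day 5, though lower than in naive cells in each genotype (-0.85 ± 0.34 in WT, -2.14 ± 0.34 in lin28Tg and -0.80 ± 0.34 in let-7Tg). It was at 236, 184 and 228 FPKM in WT CTLs, 134, 28.7 and 89.7 in lin28Tg and 242, 205 and 173 in let-7Tg. All 3 lin28Tg libraries were below the others, and without a block the difference from WT did not pass (-1.55 ± 0.45, adjusted p = 0.095). At 12 h it had been at 37.3 to 105 FPKM in all libraries. Over the 27 libraries, Pax5 and Ms4a1 each had reads in only 5. Igkc, the kappa light chain, which was singled out after its values were seen, was at 0 to 0.161 FPKM on day 5 and at 4.02, 20.5 and 9.85 FPKM in naive lin28Tg cells, against 0 to 2.75 in naive WT cells. Transcripts of the unrearranged IgM constant region are known from T cells, and which transcripts gave these reads was not tested.

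Of 5 NK genes tested between lin28Tg and WT CTLs, Klrb1c and Nkg7 were higher and the other 3 did not pass, beside the 4.34% of all genes that changed. Of 3 dendritic cell genes, Itgax was higher. Klrb1c was at 93.9, 60.8 and 158 FPKM in lin28Tg CTLs and at 17.2, 40.6 and 8.35 in WT (2.44 ± 0.53). The summed level of 9 NK genes was 783 to 1023 FPKM in lin28Tg, 470 to 615 in WT and 331 to 420 in let-7Tg CTLs, with 2 to 4 of the 9 at 0 in each library. CTLs are themselves known to express several of these genes. Of the 10 T cell genes, none was at 0, and Cd8b1, Cd2 and Cd5 were lower in lin28Tg CTLs than in WT. The part of NK cells, or of cells left from the irradiated splenocytes, in the day 5 values was not tested.

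Between let-7Tg and WT CTLs none of 16 markers passed (limma, 3 at an unadjusted p under 0.05), against 0.929% of all genes. Between lin28Tg and let-7Tg CTLs 9 passed, against 21.6% of all genes. Fcer1g (4.92 ± 0.55), Itgam (1.91 ± 0.34), Tyrobp (1.84 ± 0.44), Fcgr3 (1.22 ± 0.38) and Cd68 (0.62 ± 0.19) were higher in lin28Tg. Ctss (-2.07 ± 0.26), H2-Eb1 (-1.06 ± 0.24), Cd79a (-0.84 ± 0.23) and Alas2 (-0.50 ± 0.15) were lower. The block kept these 9 and added H2-Ab1 (adjusted p = 0.0022) and Ighm (adjusted p = 0.016). Without lin28Tg replicate 3 or let-7Tg replicate 1 there were 4 calls, and without let-7Tg replicate 2 there were 5. Fcer1g, Itgam and Ctss passed in all 6 fits that left out a library.

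**Figure D5:**
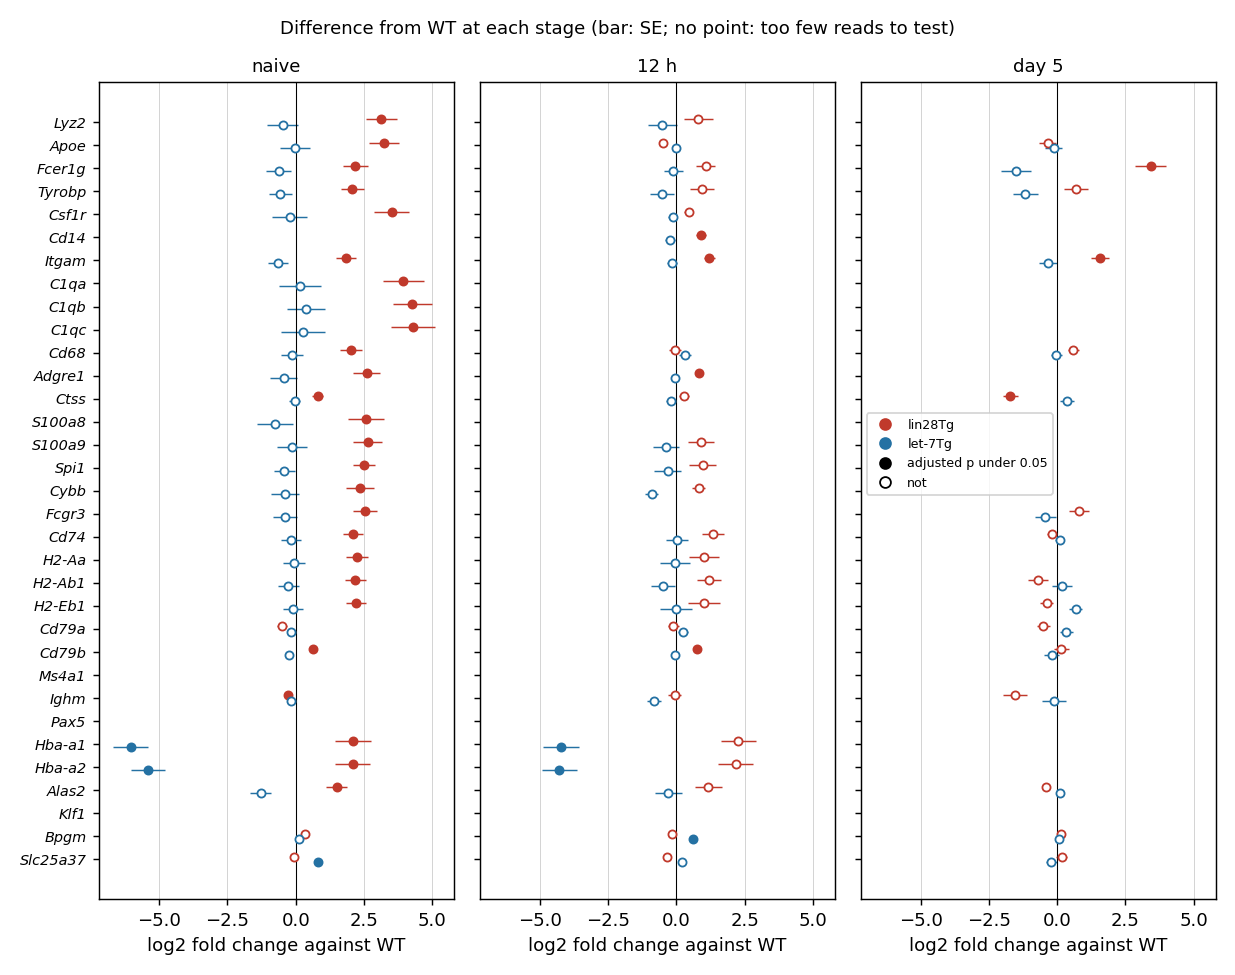
Log2 fold change of each marker against WT at each stage, on log2(FPKM + 0.5), with SE bars, for lin28Tg and let-7Tg; filled points passed at an adjusted p under 0.05 and markers without a point had too few reads. The lin28Tg points lie right of 0 for most markers in naive cells and, among the 3 that passed on day 5, Ctss lies left of 0.

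Slc25a37 and Bpgm kept reads in every library at all stages. On day 5 Slc25a37 was at 17.6 to 27.9 FPKM and Bpgm at 8.08 to 11.8 FPKM in the 9 libraries, and neither differed past the test between genotypes. Slc25a37 was higher on day 5 than in naive cells in WT (1.35 ± 0.16) and lin28Tg (1.54 ± 0.16), and in let-7Tg the difference was 0.32 ± 0.16 (adjusted p = 0.091). Bpgm was lower on day 5 than in naive cells, with log2 fold changes of -0.54 ± 0.14 in WT, -0.76 ± 0.14 in lin28Tg and -0.58 ± 0.14 in let-7Tg. Klf1 was at 0.0339 to 0.243 FPKM on day 5. Cd79b, which also kept reads in every library, was at 2.93 to 7.40 FPKM with all 3 genotypes overlapping.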

How the data were processed

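RNA-seq of 27 libraries was used. The authors aligned reads with TopHat2 2.0.9 and Bowtie2 2.0.6, counted them per gene with HTSeq 0.6.1 and deposited FPKM per library; builds GRCm38 and mm10 are named, and the annotation release and the strand setting of counting are not given in the sources used here. The 3 deposited tables also hold the authors' group means, fold changes, p-values and gene ranks, which were not used, save that the authors' group means of read counts divided by DESeq2 size factors (a signal the authors made before deposit) fixed the unit of 1 read. Of 462839 values above 0, 100% came out as whole reads (tolerance 0.01 reads); these reads gave depth, filter and floor. Genes with at least 10 reads in at least 3 libraries and 15 in all were tested with limma 3.58.1 (R 4.3.3, trend) on log2 of scaled FPKM + 0.5. Genotypes were compared in the 9 libraries of a stage, stages and differences of differences in all 27. Each stage has its own table and may be a separate sequencing run, which cannot be told apart from the stage. On simulated data the fit was tested before use. Replicates are called biological, but separate animals are not stated, so p-values measure the spread between these samples. Same-numbered libraries correlated above 0.1 in 9 of 9 pairs on day 5 (0.245 to 0.715), where replicate 1 of each genotype was the library high in Xist, and in 3 of 9 at each other stage. Members and lists were chosen with earlier results of these data known. All 33 members are named; of other lists, at most the 3 highest genes and those a count of 5 or fewer refers to. Alternatives were a pseudocount of 0.1, no filter, no scaling, a replicate block, 6 libraries and leaving out each library. Python 3.11.15 was used for tables.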

Additional observations from a re-analysis of the deposited data

Results flagged for a closer look

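The change from the naive stage differed from that of WT for 30 results, each by a limma test of the difference of differences (log2 scale, negative where the change in the transgenic line was the lower one). At 12 h lin28Tg fell more than WT for Lyz2 (-2.37), Apoe (-3.77), Csf1r (-3.04), C1qa (-3.43), C1qb (-4.07), C1qc (-4.30), Cd68 (-2.13), Adgre1 (-1.72) and Fcgr3 (-1.99). On day 5 it fell more for the same 9 genes, by -3.13 for Lyz2, -3.61 for Apoe, -3.50 for Csf1r, -3.94 for C1qa, -4.27 for C1qb, -4.31 for C1qc, -1.46 for Cd68, -2.60 for Adgre1 and -1.75 for Fcgr3. It also fell more on day 5 for Ctss (-2.55), S100a8 (-2.47), S100a9 (-2.49), Spi1 (-2.52), Cybb (-2.37), Cd74 (-2.32), H2-Aa (-2.23), H2-Ab1 (-2.92), H2-Eb1 (-2.62) and Alas2 (-1.93). Between let-7Tg and WT the change by day 5 differed by 6.36 for Hba-a1 and 5.47 for Hba-a2, which were already near 0 in naive let-7Tg cells. All of these share the WT naive libraries, and those of lin28Tg also the lin28Tg naive libraries, in which replicate 2 stood highest. Where both genotypes were at or near 0 later on, as for the globins, the C1q chains and Spi1 on day 5, the value restates the naive difference. For the C1q chains and Csf1r at 12 h it largely does so too.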

How the results depend on the processing

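No called marker changed sign under any alternative. Counts of called markers moved by more than 1.5 times with the replicate block at 12 h between lin28Tg and WT (9 instead of 4), with no filter at 12 h between let-7Tg and WT (1 instead of 3), with the block on day 5 between lin28Tg and WT (7 instead of 3), and with a pseudocount of 0.1 for the difference of lin28Tg from WT at 12 h (5 instead of 9). The cause was not tested. Leaving out 1 library gave 1 to 3 calls for let-7Tg against WT in naive cells, 1 to 6 for lin28Tg against WT, 0 to 4 for let-7Tg against WT and 7 to 18 for lin28Tg against let-7Tg at 12 h, and 1 to 3 and 4 to 6 for lin28Tg against WT and against let-7Tg on day 5. For lin28Tg against WT in naive cells it gave 21 to 26, with 21 without WT replicate 3. In naive cells, Hba-a1 and Hba-a2 lost their call in lin28Tg with a pseudocount of 0.1 and with no filter, and Itgam lost it on day 5 under both. Same-numbered WT and let-7Tg libraries correlated at 0.240, 0.549 and 0.434 at 12 h, and at 0.475, 0.216 and 0.0612 in naive cells. Pairs of different numbers, over all genotypes, ran from -0.445 to 0.393 at 12 h and from -0.403 to 0.291 in naive cells. In naive WT and let-7Tg cells, replicate 1 held Ddx3y and replicates 2 and 3 held Xist. Whether the numbers mark a pairing is not given in the sources used here. At these depths a marker with no read in a library allows up to 3 reads.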
